A study of Mus musculus with 6 samples.

Results

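The insulin and IGF signalling genes described here are Igf1, Igf1r, Insr, Pik3r1, Akt1, Akt2, Gsk3b, Foxo3 and Mtor, 9 of the 395 genes that could be named in thyroid hormone receptor α (TRα) peak lists from mouse gastrocnemius, the large calf muscle. A peak was taken as belonging to one of them where the annotation text deposited behind the peak gave a RefSeq protein of that gene. This gave 114 of the 3812 gene-named peaks, out of 491681 peaks in all. The lists came from chromatin immunoprecipitation with an antibody to TRα followed by sequencing, in 2 mice of 6 months, 2 of 15 months and 2 of 21 months, with an input library for each mouse. The labels name no strain, sex, genotype or treatment for any group. They call the ages youth, mid and old and number the samples of each, taken here as 2 mice. Since they do not state that these were separate animals, the p-values below measure the spread between these samples. Chromatin came from muscle tissue, so fibres and the other cells of the muscle cannot be told apart, and marker genes of the tissue cannot be checked in peak lists.

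Insulin and IGF-I bind related receptor tyrosine kinases, which recruit phosphoinositide 3-kinase and through it activate the AKT kinases. AKT inhibits glycogen synthase kinase, keeps FOXO transcription factors out of the nucleus and activates mTOR, so that in skeletal muscle the pathway promotes glucose storage and protein synthesis and restrains atrophy. TRα is a nuclear receptor that binds DNA at thyroid hormone response elements built from copies of the hexamer AGGTCA, and it is the main thyroid hormone receptor of skeletal muscle.

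The promoters of the genes themselves are shown to give the sequence context of these elements. RefSeq windows of 300 bases, 250 before and 50 after an annotated start (build GRCm38.p6), were at hand for 8 of the 9 genes, and Insr had none. The hexamer AGGTCA, searched on both strands (TGACCT on the other), was found in 3 of the 13 windows of these genes and in 16.3% of all 32851 windows. It stood once in each of the 3, and these windows are printed because they hold it, with the match in capitals.
Akt1, minus strand, chr12:112674835-112675134: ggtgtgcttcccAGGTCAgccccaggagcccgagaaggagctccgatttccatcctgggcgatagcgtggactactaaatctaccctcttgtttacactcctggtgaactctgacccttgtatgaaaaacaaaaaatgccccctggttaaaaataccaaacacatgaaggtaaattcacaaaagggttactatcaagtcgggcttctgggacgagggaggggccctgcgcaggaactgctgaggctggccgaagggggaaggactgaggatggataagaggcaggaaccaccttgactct
Igf1, plus strand, chr10:87860861-87861160: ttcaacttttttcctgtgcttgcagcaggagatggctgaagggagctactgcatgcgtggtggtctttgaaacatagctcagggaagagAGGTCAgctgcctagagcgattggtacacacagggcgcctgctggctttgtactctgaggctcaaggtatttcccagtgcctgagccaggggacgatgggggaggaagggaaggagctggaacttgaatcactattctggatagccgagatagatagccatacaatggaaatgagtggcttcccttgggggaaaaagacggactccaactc
Igf1r, plus strand, chr7:67952007-67952306: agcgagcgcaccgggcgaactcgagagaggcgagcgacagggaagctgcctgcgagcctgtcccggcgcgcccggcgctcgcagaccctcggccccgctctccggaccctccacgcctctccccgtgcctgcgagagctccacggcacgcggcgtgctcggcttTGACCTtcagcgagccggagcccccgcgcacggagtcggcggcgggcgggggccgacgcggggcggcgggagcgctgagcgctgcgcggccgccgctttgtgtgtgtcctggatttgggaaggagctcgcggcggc
The match began 238 bases before the start in Akt1, 161 before it in Igf1 and 86 before it in Igf1r, where it was on the reverse strand. A pair of direct repeats with 4 bases between them (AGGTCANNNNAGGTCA, both strands), the classical arrangement for thyroid hormone receptors, was in 0 of the 13 windows and in 5 of the 32851. The peaks below are in another build, so whether any of them covers these windows was not analysed here, and a match or its lack says nothing of binding.

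TRα peaks of these genes were shallow, as peaks were in the lists as a whole. Their pileup, which is the height in fragments at the summit, ran from 3 to 8 with a median of 4 (list medians 4 or 5). Their width ran from 194 to 791 bp. Their deposited fold over the local input, with 1 added to pileup and input alike, ran from 2.21 to 4.13. Of the 114 peaks, 0 had a q of at most 0.05, where 76 of the 3812 gene-named peaks (1.99%) and 10875 of all peaks (2.21%) did. The lowest q among them was 0.0807, at Igf1 in replicate 1 at 15 months. The fold exceeded the median of its own list for 49 of the 114 peaks (43.0%), as it did for 41.9% of all peaks, and it passed the list's 90th percentile for 7 (6.14%), against 7.23% of all peaks. In folds these peaks therefore lay across the ordinary range of the lists and not at its top. The local input background was within 1.5 times the lowest of the list for 102 of the 114 (89.5%), and for 90.3% of all peaks. The 6 lists held 29405 to 106152 peaks each, at a p under 0.01 and with no limit on q. Read totals were not used here, and at such pileups the lack of a peak does not show a lack of binding.

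**Figure D1:**
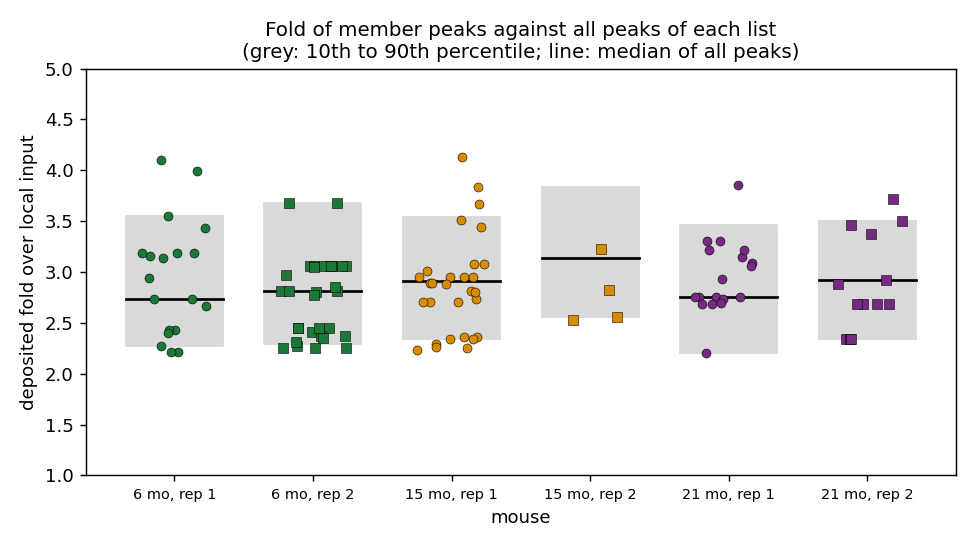
Deposited fold over local input of every peak of the 9 genes (points, y axis) in each mouse (x axis), with the 10th to 90th percentile of all peaks of the list in grey and the list median as a line. The points run from 2.21 to 4.13 and most lie inside the grey bands.

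Igf1r had the most peaks of the group and Akt1 and Akt2 the fewest. Over the 6 lists there were 33 peaks for Igf1r, 23 for Foxo3, 17 for Igf1, 15 for Gsk3b, 11 for Insr, 5 for Pik3r1, 4 for Mtor and 3 each for Akt1 and Akt2. The median named gene had 6 peaks. Igf1r had more than 95.4% of the named genes, and Akt1 and Akt2 more than 25.3%. The peaks of a gene were spread over 4.13 kb for Akt1 and up to 185 kb for Igf1r. All peaks lying between the first and last peak of each gene carried that gene's name. Per 100 kb of this span, and leaving out the first and last peak, the 6 lists together held 16.7 peaks at Igf1r (exact Poisson 95% interval 11.4 to 23.7), 16.9 at Foxo3 (10.5 to 25.9), 21.5 at Igf1 (12.0 to 35.4), 14.7 at Gsk3b (7.84 to 25.2) and 22.7 at Insr (10.4 to 43.1). Their whole chromosomes held 18.5 to 19.2 peaks per 100 kb, inside all 5 intervals. A density of these 5 genes apart from that of their chromosomes was not detectable at these counts. Akt2 had 2.43 per 100 kb (0.0615 to 13.5) against 18.7 on chromosome 7, with its 3 peaks spread over 41.2 kb. These densities were added after the values had been seen, and the intervals cover counting error alone.

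**Figure D2:**
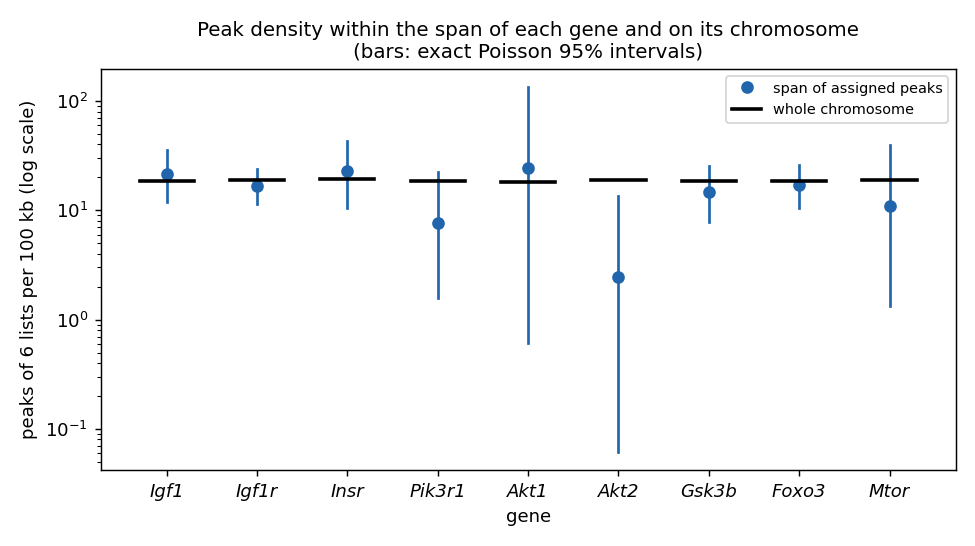
Peaks of the 6 lists per 100 kb (y axis, log scale) within the span of each gene's assigned peaks, without the 2 outermost peaks (points, with exact Poisson 95% intervals), and on its whole chromosome (black lines). The line crosses the interval for all genes but Akt2, at 2.43 against 18.7.

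Igf1 encodes insulin-like growth factor I, the ligand that muscle makes for its own growth. Its peaks numbered 4 and 4 in the mice of 6 months (replicate 1 before replicate 2, here and below), 5 and 0 in those of 15 and 3 and 1 in those of 21. Per 10000 peaks of the list, which allows for the different list lengths, that was 0.506 and 0.377, then 0.503 and 0, then 0.327 and 0.116. The mice of 6 months lay above both mice of 21 months, and those of 15 months were the highest but one and the lowest of the 6. The share of named genes with both mice of an age above both of another was not counted, here and below. Such an order is therefore no result about a gene. The mean was 0.441 ± 0.0914 at 6, 0.251 ± 0.356 at 15 and 0.222 ± 0.149 at 21 months (SD, n = 2 each). Its highest fold was 4.13, with a pileup of 6, in replicate 1 at 15 months at chromosome 10, 87663031 to 87663326 (GRCm39, as for all peaks here). No position of Igf1 overlapped between mice.

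Of the receptors, Igf1r, which binds IGF-I, had peaks in all 6 mice. Its lists held 4 and 7 peaks in the youngest mice, 9 and 2 in the middle ones and 5 and 6 in the oldest. Per 10000 peaks these were 0.506 and 0.659, then 0.905 and 0.680, then 0.546 and 0.698. Both mice of 15 months lay above both mice of 6 months, by as little as 0.680 against 0.659, and those of 21 months overlapped with both ages. The shortest list, replicate 2 at 15 months, lay among the others once scaled by its length. Its value rests on 2 peaks, under the 3 counts that make 1.02 per 10000 in that list, so its place in this order is uncertain. The means were 0.583 ± 0.108, 0.793 ± 0.159 and 0.622 ± 0.108 (SD, n = 2 each). The peak with the highest fold, 4.10 with a pileup of 8, was at chromosome 7, 67622961 to 67623184, in replicate 1 at 6 months.

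Insr, the insulin receptor, had 4 peaks in replicate 2 at 6 months, 4 in replicate 1 at 15 months, 3 in replicate 1 at 21 months and 0 in the other mice. It was therefore found in exactly 1 mouse of every age, with 0.377, 0.402 and 0.327 peaks per 10000 in those mice. A list without any peak still allows up to 0.380 per 10000 in replicate 1 at 6 months, 1.02 in replicate 2 at 15 months and 0.349 in replicate 2 at 21 months (3 counts over the list length), so the lack in these lists is at the edge of what they can show. Its highest fold was 3.86 at chromosome 8, 3339940 to 3340230, in replicate 1 at 21 months.

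Pik3r1 encodes a regulatory subunit of phosphoinositide 3-kinase. There were 2 in replicate 1 at 6 months, 1 in replicate 1 at 15 months, 1 in each mouse of 21 months and 0 in the others, with folds from 2.40 to 3.08. All 5 peaks lay at different positions between 101898734 and 101938172 on chromosome 13.

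Akt1 encodes the AKT kinase best known for cell growth and survival, and its peaks were found at 6 months alone. There were 2 in replicate 1 and 1 in replicate 2, and 0 in each of the 4 older mice, or 0.253 and 0.0942 per 10000 peaks against 0. The 3 peaks lay within 4.13 kb on chromosome 12, at 112633505 to 112633857 and 112634085 to 112634303 in replicate 1 and at 112637438 to 112637636 in replicate 2, and did not overlap. Their pileups were 6, 5 and 3 and their folds 2.43, 2.66 and 2.27, all under the median fold of their lists. A count of 0 allows up to 0.302 and 1.02 per 10000 in the lists of 15 months and 0.327 and 0.349 in those of 21 months, each above both values at 6 months. A difference of Akt1 between ages was therefore not detectable at this depth. Akt2, the AKT form most tied to insulin-stimulated glucose uptake, had 1 peak in each of 3 mice, namely replicate 2 at 6 months, replicate 1 at 15 months and replicate 1 at 21 months. Their folds were 3.06, 2.95 and 3.22, and they did not overlap.

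Gsk3b, the kinase that restrains glycogen synthase until AKT inhibits it, was the other member with peaks in all 6 mice. That made 2 of the 9 genes, where 73 of the 395 named genes had peaks in all 6. Counts were 2 and 5 in the youngest, 3 and 1 in the middle and 2 and 2 in the oldest mice, or 0.253 and 0.471, then 0.302 and 0.340, then 0.218 and 0.233 per 10000. Both mice of 21 months lay below the other 4, by a gap no wider than that from 0.233 to 0.253. Its highest fold was 3.83 at chromosome 16, 37888243 to 37888483, in replicate 1 at 15 months.

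Foxo3, which turns on atrophy and autophagy genes in muscle when AKT signalling is low, had 5 and 6 peaks in the youngest mice, 6 and 0 in the middle ones and 3 and 3 in the oldest. Per 10000 these were 0.633 and 0.565, then 0.603 and 0, then 0.327 and 0.349. Both mice of 6 months lay above both mice of 21 months, an order whose share among named genes was not counted. The list without a peak was the shortest one. The means were 0.599 ± 0.0476, 0.302 ± 0.427 and 0.338 ± 0.0153 (SD, n = 2 each). With peaks of a pileup of at least 5 alone, the slope of Foxo3 on age turned to a rise (exact permutation p = 0.8). So did that of Igf1 (0.667). With each list cut by p to the length of the shortest, both slopes stayed below 0. They were then -0.84 for Foxo3 and -0.68 for Igf1, relative to the gene's mean density and per 10 months. The direction for the stronger peaks therefore depended on the filter. The highest fold, 3.99 with a pileup of 8, was at chromosome 10, 42162372 to 42162589, in replicate 1 at 6 months. Mtor, the kinase that drives protein synthesis, had 3 peaks in replicate 2 at 6 months, 1 in replicate 2 at 15 months and 0 in the other mice, with folds from 2.82 to 3.06.

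**Figure D3:**
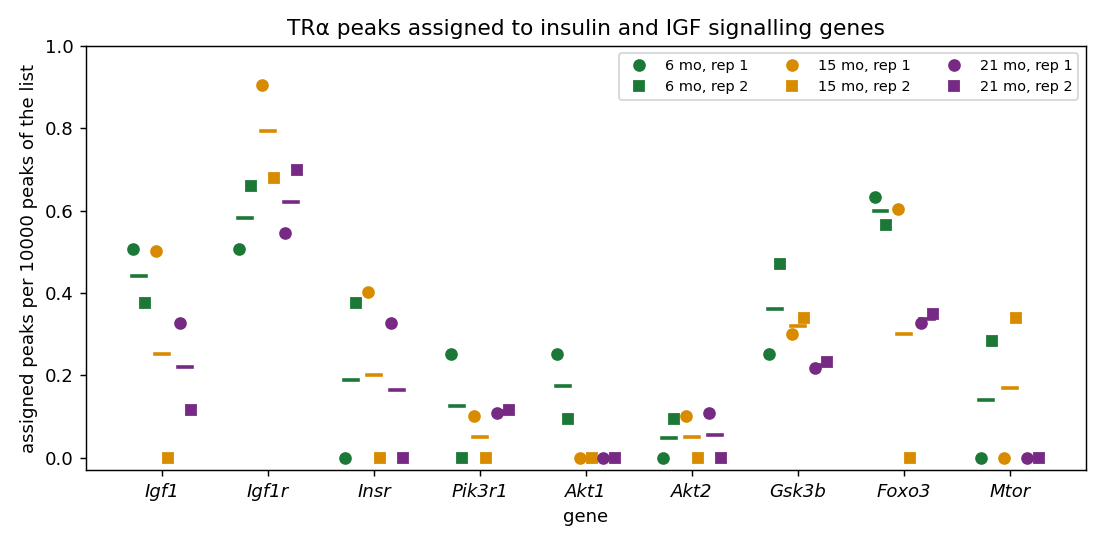
Assigned peaks per 10000 peaks of the list (y axis) for each gene (x axis) and mouse (circle, replicate 1; square, replicate 2; colour, age), with the mean of each age as a bar. Igf1r runs from 0.506 to 0.905, and Akt1 is above 0 at 6 months alone.

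Peaks were present in both mice of an age for 5 of the 9 genes at 6 months (Akt1, Foxo3, Gsk3b, Igf1 and Igf1r), where 43.3% of the named genes had them. At 15 months it was 2 of 9 (Gsk3b and Igf1r), against 32.9%, and at 21 months 5 of 9 (Foxo3, Gsk3b, Igf1, Igf1r and Pik3r1), against 43.0%. With 9 genes these shares are near the background. At 15 months the count rested on the shortest list. Replicate 1 at 15 months, taken by itself, had peaks for 7 of 9 genes, against 68.61% of named genes. Replicate 2 at 6 months, taken by itself, had them for 8, against 70.63%. Among the 9, Akt1 alone was present in both mice at one age and absent from both at another, at 6 and not 15 months (3.29% of named genes) and at 6 and not 21 months (3.04%), 2 contrasts that share the mice of 6 months. None of the 9 had the opposite pattern (2.03% and 2.28% of named genes) or differed in this way between 15 and 21 months (2.03% and 4.56%). Akt1 no longer had it with a pileup of at least 5 or with lists of equal length.

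Summed over the 9 genes, peaks per 10000 were fewer in both mice of 21 months than in both mice of 6 months, and those of 15 months had no common direction. The lists held 19 and 31 of these peaks in the youngest mice, 29 and 4 in the middle ones and 18 and 13 in the oldest. Scaled to 10000 peaks this was 2.40 (exact binomial 95% interval 1.45 to 3.75) and 2.92 (1.98 to 4.14), then 2.92 (1.95 to 4.19) and 1.36 (0.371 to 3.48), then 1.96 (1.16 to 3.10) and 1.51 (0.805 to 2.58). Both mice of 6 months stood above both mice of 21 months, while the pair of 15 months held a value near the highest and the lowest of all. Means were 2.66 ± 0.365 at 6 months, 2.14 ± 1.10 at 15 months and 1.74 ± 0.320 at 21 months (SD, n = 2 each). All gene-named peaks together were at 76.8 ± 4.33, 83.2 ± 1.16 and 74.2 ± 7.09 per 10000 (SD, n = 2 each). The mean at 15 months was 0.803 times that at 6 months, and 1.10 times it without replicate 2 at 15 months. The order of the ages turned with a pileup of at least 5, where the means were 1.96, 1.99 and 2.08 at 6, 15 and 21 months. It held under other settings. The mean at 21 months was 0.667 times that at 6 months with equal list lengths. It was 0.663 times it per Mb covered by peaks and 0.687 times it per 1000 gene-named peaks. No test was made of this sum.

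**Figure D4:**
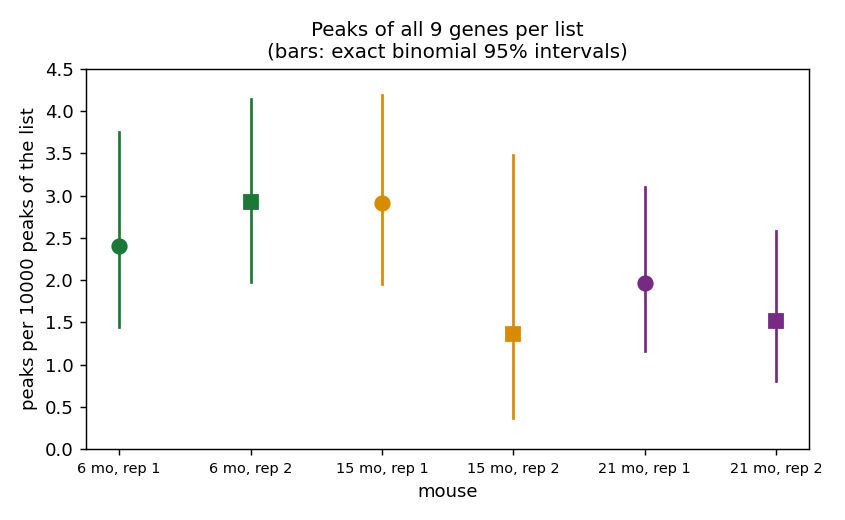
Peaks of all 9 genes per 10000 peaks of the list (y axis) in each mouse (x axis), with exact binomial 95% intervals that cover counting error alone. The mice of 6 months are at 2.40 and 2.92 and those of 21 months at 1.96 and 1.51, and the intervals of all 6 overlap.

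A trend with age was tested for every named gene, as the slope of its peaks per 10000 on age and compared two-sided with the slopes of all 90 ways to give the ages to the mice (an exact permutation test). Of the 395 genes, 0 (0.0%) had an adjusted p of at most 0.05 (Benjamini-Hochberg over all 395) and 9 (2.28%) had an unadjusted p of at most 0.05, with none of the insulin and IGF genes among them. The smallest p the design allows is 0.0111, and 88 genes would have to reach it for any to pass the adjustment, so this test cannot single out a gene. Akt1 had the lowest exact permutation p of the group, 0.0667, with a slope of -0.12 peaks per 10000 per 10 months, and the adjusted p was 1 for all 9. The slopes were -0.19 for Foxo3 (exact permutation p = 0.267), -0.15 for Igf1 (0.267), -0.088 for Gsk3b (0.2) and -0.084 for Mtor (0.667). They were near 0 for Insr (-0.014), Pik3r1 (-0.015) and Akt2 (0.0049), and 0.042 for Igf1r, with exact permutation p from 0.711 to 0.867. Slopes were below 0 for 7 of the 9 genes and for 46.8% of named genes, and the median was -0.084 against 0.0027.

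Positions were rarely shared. The 114 peaks formed 111 regions, of which 3 (2.70%) had peaks in a pair of mice and 0 in more, against 5.52% of the regions of named genes and 6.40% of all 458111 regions. At Igf1r the mice of 6 months shared chromosome 7, 67572570 to 67573073, with an overlap of 81 bp, folds of 3.19 and 2.82 and summits 254 bp apart. This was the one position that both mice of an age had in common. At Foxo3, replicate 2 at 6 months and replicate 2 at 21 months shared chromosome 10, 42059056 to 42059327, with folds of 2.45 and 2.68 and summits 19 bp apart. At Insr, replicate 2 at 6 months and replicate 1 at 21 months shared chromosome 8, 3351612 to 3351982, with folds of 3.05 and 2.70. All 3 shared regions included replicate 2 at 6 months, the longest list. Leaving it out therefore had to give 0 shared regions, of 83, against 4.94% of all regions. None of these 6 peaks had a q of at most 0.05.

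Neighbouring peaks of different mice were more common than overlapping ones. With gaps of up to 500 bp joined, 12 of 99 regions (12.1%) held peaks of several mice, against 12.3% for named genes and 13.9% of all regions. In 1 of the 12, at the end of the span of peaks named for Gsk3b, the second peak did not carry the gene's name. The Igf1r region then ran to 67573423 and held a peak of replicate 1 at 15 months as well, 143 bp from the nearest, with a fold of 2.26, which made it the one region with 3 mice. At Insr, chromosome 8, 3339940 to 3340574, replicate 1 at 21 months (fold 3.86) and replicate 2 at 6 months (fold 3.67) had peaks 28 bp apart. Other pairs lay 25 and 131 bp apart at Igf1r, 84 bp apart at Gsk3b, 158 and 266 bp apart at Foxo3, 380 bp apart at Igf1 and 400 bp apart at Insr.

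**Figure D5:**
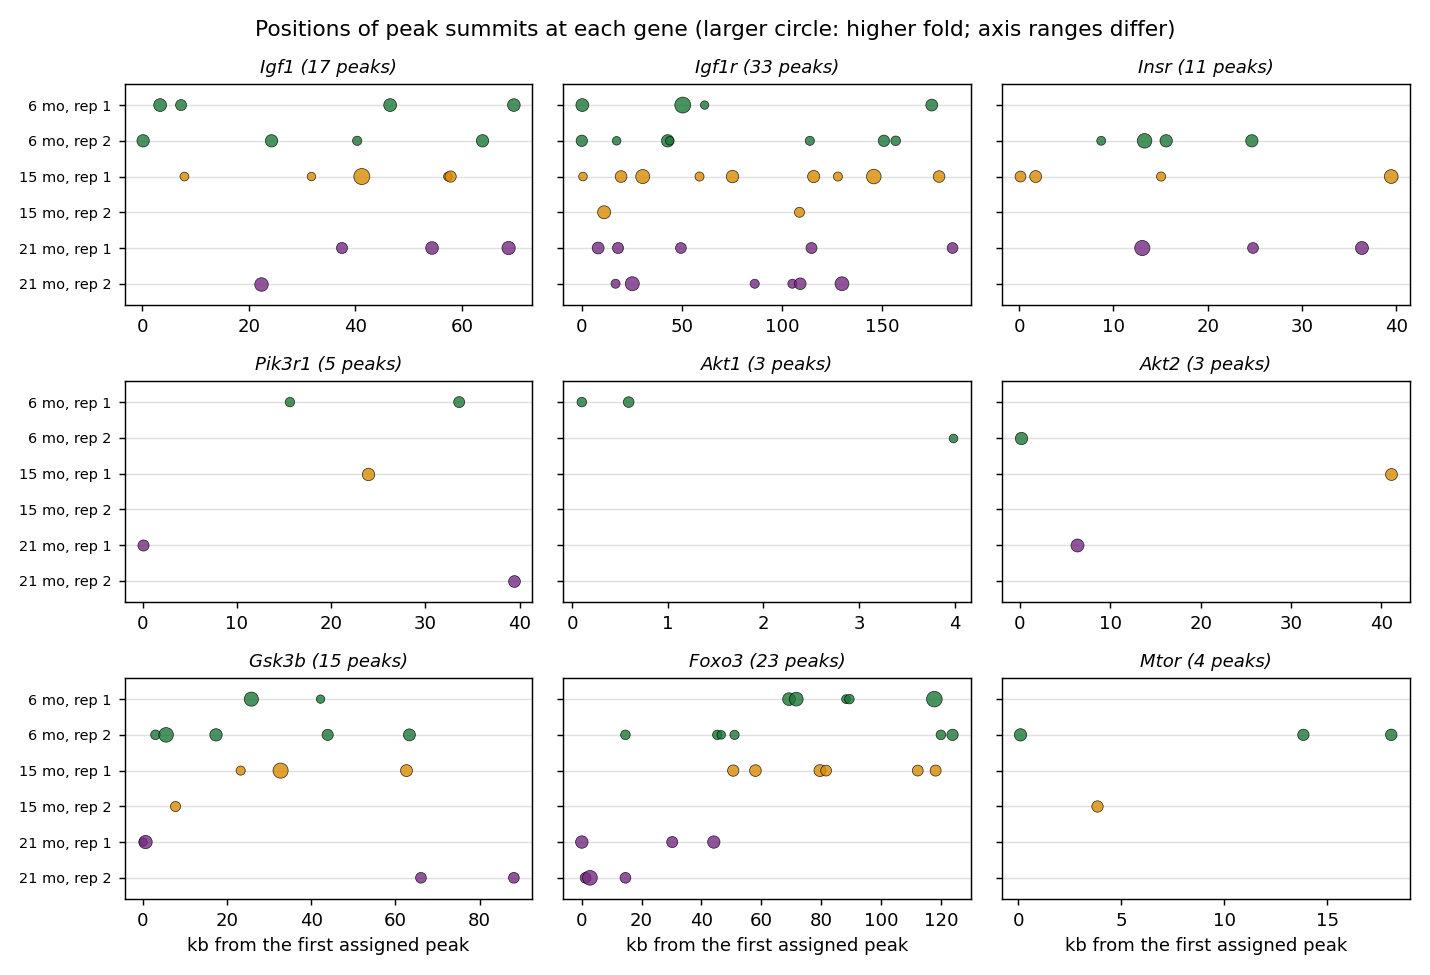
Summits of the peaks of each gene (circles, larger for a higher fold) by distance in kb from the first assigned peak (x axis, range differs between panels) in each mouse (rows, colour by age). Few circles stand above one another, and at Foxo3 the 6 peaks of 21 months all lie within 44.1 kb of the first.

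The annotation text that gave the names also listed pathways. It placed 6 of the 9 genes (Akt1, Akt2, Foxo3, Gsk3b, Mtor and Pik3r1) in the KEGG thyroid hormone signalling pathway, as it did 57 of the 395 named genes (14.4%). Igf1 carried the Gene Ontology term for response to thyroid hormone, as 7 named genes did in the part of the text that is kept. All 9 were in the PI3K-Akt pathway (23.3% of named genes) and 8 in the insulin pathway (9.87%), all but Igf1. These are properties of the annotation, and a gene could be named only where its annotation text had overrun its cell.

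Of 61 further genes of the pathway, 18 were named, with 152 peaks, 3 of them at a q of at most 0.05. Peaks in both mice were found for 6 of the 18 at 6 months (43.3% of all named genes), 5 at 15 months (32.9%) and 6 at 21 months (43.0%). Pik3cb, a catalytic subunit of phosphoinositide 3-kinase, had 3, 5, 4, 1, 6 and 4 peaks in the 6 lists, by age and then replicate. Pik3r3, another regulatory subunit, had 2, 1, 5, 4, 6 and 2. Ins1, an insulin gene, had 9, 7, 8, 1, 13 and 13. Each of these genes had peaks in all 6 mice, as did 4 of the 18 in all and 73 of the 395 named genes. The other insulin gene, Ins2, had 1 and 3 peaks at 6 months, 1 and 0 at 15 and none at 21 months. Its exact permutation p of 0.0333 was the lowest of the 18 and the one under 0.05 (slope -0.14 peaks per 10000 per 10 months, adjusted p = 1). Peaks in both mice of a single age were found for Insrr, an insulin receptor relative, at 6 months, and for Map2k2, a MAP kinase kinase, and Ptpn1, a phosphatase of the insulin receptor, at 21 months. The other 43, among them Irs1, Foxo1, Slc2a4 and Rps6kb1, were not named by the text and were not analysed here.

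Among the 61 other named genes with at least 18 peaks, the density over the 6 lists that was most like the summed density of the 9 genes was that of Dlg3 (Pearson's r = 0.833 over 6 lists), a synaptic scaffold gene. Dlg2, of the same family, followed at 0.755 and Prkch, a protein kinase C gene, at 0.706. The lists share their length as a common divisor, and r is given as a description.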

How the data were processed

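Lists were grouped by age from the sample titles, with 2 mice per age. Trimmomatic 0.36, HOMER 3, MACS2 2.1.1.20160309 and SAMtools 1.3.1 are listed per the submitters' processing notes, with the builds GRCm39 and mm10. The aligner is not given in the sources used here, nor are the caller's options. A scaffold that GRCm39 has and GRCm38 lacks is named in 5 of the 6 lists, so positions are given as GRCm39, counted from 1. Peaks were called per mouse against its own input, per the peak names. The deposited pileup is a signal (fragments at the summit), and the deposited fold is a ratio, pileup over local input background after 1 is added to each, as its steps between pileups show. The authors' p and q were deposited as −log10 values under damaged column names and read by the column order of MACS2 tables. The lowest −log10 p was 2.00 to 2.01 in every list. The deposited values were used to describe and filter peaks only.

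Annotation text had run into extra lines behind 3987 peaks. Its protein accessions gave 1 gene symbol for 3812 peaks (0.775%), by a RefSeq table of GRCm38.p6 used for names. The gene lay on the peak's chromosome for 100% of them. Genes are assigned at any distance, and position within the gene was not analysed here. Regions were joined by an overlap of at least 1 bp. Shares carry exact binomial 95% intervals and densities exact Poisson ones. The members and gene lists were chosen with earlier results of these data known. The rule for named genes took all 9 members, the other named pathway genes with peaks in both mice of an age, the 3 genes most like the members' sum, and single peaks that were shared or had the highest fold of a gene. Some of these pathway genes are not reported here. The slope test was tested on simulated data, in which changes with age were set only at counts far above the real ones. Its power to find a change at the real counts was not tested. Between 2 ages there are 3 splits of 4 mice, so 2 against 2 mice were counted and not tested. Alternatives changed the peak filter, scaling, overlap rule, replicate block and mice used. Python 3.11.15, pandas 2.3.3 and scipy 1.17.1 were used.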

Additional observations from a re-analysis of the deposited data

How the results depend on the processing

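With q of at most 0.05 no peak of the 9 genes was left. The counts of genes with peaks in both mice were then 0, 0 and 0 at 6, 15 and 21 months, and Akt1's pattern (6 and not 15, 6 and not 21 months) and the shared regions were at 0, 0 and 0, with no ratio of densities. With a pileup of at least 5, both-mice counts were 2 at 6 and 3 at 21 months. There, 0 genes had peaks at 6 and not 15 or at 6 and not 21 months, and 1 gene had them at 21 and not 15 months. Of 45 regions 0 were shared, against 4.86% of all regions at that setting. The density at 21 over 6 months was 1.06 against 0.653, where equal list lengths gave 0.667. With equal list lengths, both-mice counts were 2 at 6 and 1 at 21 months, and Akt1's pattern was gone in both contrasts (0 and 0). Of 38 regions 0 were shared, against 3.97% of all regions at that setting. The shares of all named genes under these filters are not given, so the counts of genes are no result about the 9 genes. Joined over gaps of up to 500 bp, 12 regions were shared in place of 3. The effect of these settings comes with fewer peaks kept or wider joins.

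Leaving out 1 mouse at a time gave 5 to 8 genes with peaks in both mice (or the 1 left) at 6 months, 2 to 7 at 15 months and 5 to 7 at 21 months. It gave 1 to 3 genes at 6 and not 15, 1 to 2 at 6 and not 21, 0 to 1 at 21 and not 6, 0 to 1 at 15 and not 21, 0 to 3 at 21 and not 15 months, and 0 to 3 shared regions. With 1 mouse left, both rules ask about that mouse alone, which raises or keeps the count for any set of genes. A peak in the mouse left was held by 56.96% or 70.63% of all named genes at 6 months (replicate 1 or 2). At 15 months it was 68.61% or 38.23%, and at 21 months 60.25% or 63.29%. Shares for the counts between ages are not given. Neither kind of count is a result about the genes described here. The density ratio to 6 months was 0.511 to 1.10 at 15 months and 0.568 to 0.738 at 21 months.

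No trend passed the adjustment under any setting, and this could hardly have come out otherwise. The ages can be given to the mice in 90 ways, in 36 within replicate number and in 30 with 1 mouse left out. The replicate numbers are not stated to pair the mice. Deviations from the age means correlated at 0.00162, -0.125 and 0.034 between ages over the 395 named genes. With so few peaks per gene these values cannot show whether the numbers pair the mice. With ages permuted within replicate number (replicate block), 0 genes passed and 3 had an unadjusted p of at most 0.05. Slopes relative to the gene's mean density, per 10 months, turned with a pileup of at least 5 for Foxo3 (0.26 from -0.45), Igf1 (0.26 from -0.50), Insr (0.52 from -0.076) and Mtor (0.26 from -0.81). They turned with equal list lengths for Insr (0.46), Mtor (0.26) and Pik3r1 (0.26 from -0.16), and per 1000 gene-named peaks for Insr (0.0050). Without single mice they ran from -0.58 to 0.83 for Akt2, -0.054 to 0.17 for Igf1r, -0.63 to 0.69 for Insr and -0.73 to 1.17 for Pik3r1.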

Other observations

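At Foxo3 the peaks of the oldest mice stood at one end of the gene's span. The 6 peaks of 21 months, 3 in each mouse, had summits 0.035 to 44.1 kb from the first peak, with a median of 8.69 kb. Of the 17 peaks at 6 and 15 months, 16 lay beyond that range, from 45.3 kb on, and 1 lay inside it, at 14.6 kb, where it overlapped a peak of 21 months. The median was 71.7 kb at 6 months and 80.6 kb at 15 months. At Igf1r, with 11 peaks at each age, the medians were 50.5, 75.4 and 86.5 kb and the ranges overlapped. At Gsk3b they were 25.8, 28.0 and 33.4 kb, at Igf1 32.3, 41.2 and 45.9 kb, and at Insr 14.5, 8.41 and 24.8 kb. The pattern at Foxo3 was noticed in the positions and chosen for them, so it was not tested.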
